A study of Homo sapiens with 4 samples.

Results

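The 10 genes described here are the cyclins, cyclin-dependent kinases and pocket proteins that act together at the passage from G1 into S phase. They are the D-type cyclins CCND1 and CCND3, the E-type cyclins CCNE1 and CCNE2, the kinases CDK2, CDK4 and CDK6, and the pocket proteins RB1, RBL1 and RBL2. They were taken by gene symbol, with counts summed over the transcripts of each gene, and all 10 were among the 15101 genes tested of 15221 with a value. RNA-seq had been made from 2 libraries of PANC-1 and 2 libraries of PZT-2. PANC-1 is a human cell line from a carcinoma of the pancreatic duct, and its cells here were wild type and not transduced. PZT-2 is 1 clone of PANC-1 that carries short hairpin RNAs (shRNAs) against the 3 isoforms of the histone variant H2A.Z, which the genes H2AFZ and H2AFV encode. The comparison asks how the transcripts of these genes differ once H2A.Z is depleted. As a single clone was compared with untransduced parental cells, the depletion of H2A.Z, the transduction and the choice of the clone cannot be told apart. Libraries of cells with a scrambled shRNA were not analysed here. The study sequenced such cells and reports that PZT-2 differed from them in similar genes and processes as from PANC-1. That comparison was not checked here, and it used the same clone.

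D-type cyclins are made in response to growth signals and activate CDK4 and CDK6, which start to phosphorylate the pocket proteins. Unphosphorylated pocket proteins hold the E2F transcription factors, and their phosphorylation releases E2F, which drives genes of DNA replication together with the E-type cyclins. The E-type cyclins in turn activate CDK2, which completes the phosphorylation. Much of this control is exerted on proteins, through phosphorylation, inhibitors and degradation, none of which RNA-seq measures.

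The recovered counts of the libraries ranged from 12860836 to 15716028. TPM is the level of a gene per transcript length, scaled to the library. H2AFZ stood at 985 and 964 TPM in PANC-1 and at 363 and 369 TPM in PZT-2, with a log2 fold change of -1.47 (SE 0.057, adjusted p = 6.2e-05). H2AFV stood at 284 and 296 TPM in PANC-1 and at 238 and 248 TPM in PZT-2, a change of -0.36 on the log2 scale with an adjusted p of 0.0057. Of 7 markers of ductal epithelium, all had at least 1 TPM in a library, and their summed level was 7321 to 7471 TPM in PANC-1 and 4055 to 4148 TPM in PZT-2. Nearly all of that sum was KRT8, KRT18 and KRT19, which were called lower together with CDH1, while SOX9 was called higher and KRT7 and EPCAM were not called. CDH1, a defining epithelial marker, stood at 3.03 and 4.0 TPM in PANC-1 and at 0 and 0.527 TPM in PZT-2. Of 13 markers of fibroblasts, endothelium, blood, acinar and islet cells, 9 had no value in any library and only COL1A1 and CD68 reached 1 TPM. Here and below, no value means that the deposited values held no transcript named for the gene. Absence of its RNA and omission of its transcripts then cannot be told apart. The summed level of these 13 was 129 to 132 TPM in PANC-1 and 126 to 134 TPM in PZT-2, nearly all of it CD68. COL1A1, a collagen of fibroblasts, fell from 10.5 and 11.7 TPM in PANC-1 to 3.83 and 3.03 TPM in PZT-2, a change of -1.75 on the log2 scale with an adjusted p of 0.00046. The part of these markers in the results below was not tested. In bulk RNA, fewer cells that express a gene and less of its RNA per cell cannot be told apart.

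Both D-type cyclins, CCNE1 and CDK2 were higher in PZT-2, CDK4 was lower, and CCNE2, CDK6 and the 3 pocket proteins did not pass the test. Thus 5 of the 10 genes were called, 4 higher and 1 lower. A gene counts as called where its p from the quasi-likelihood test of edgeR, adjusted by Benjamini-Hochberg across the genes tested, is under 0.05. By this rule 28.4% of all genes were called, 14.7% in the higher and 13.7% in the lower direction. The changes of the 5 called genes were all smaller than 2-fold. The median log2 fold change of the 10 genes was -0.12, against 0.0013 over all genes. Over all genes the median size of the log2 fold change was 0.28, and 8 of the 10 genes had libraries of the cell lines that did not overlap, as did 66.3% of all genes. The study describes the libraries of a line as biological replicates, but the labels do not say whether they came from separate cultures, so p-values measure the spread between these libraries.

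**Figure D1:**
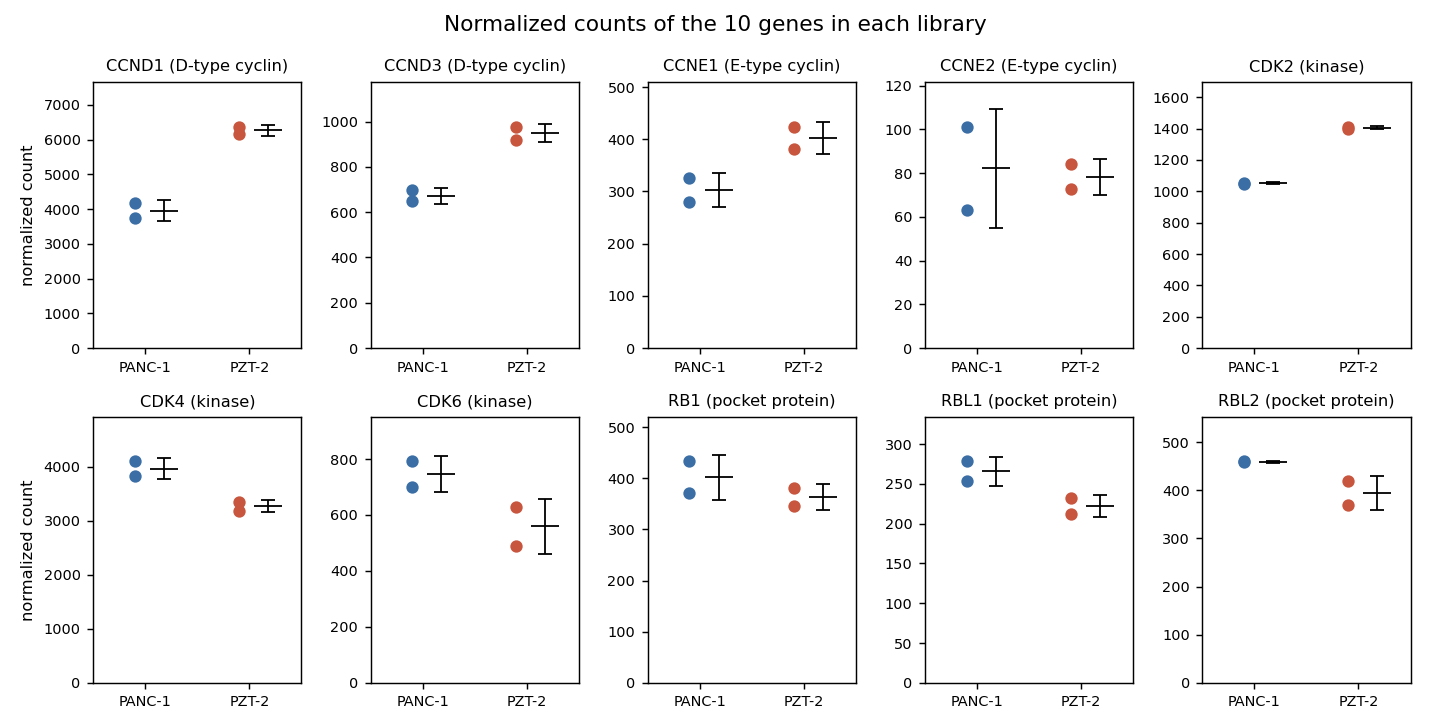
Normalized counts of the 10 genes (vertical axes, each starting at 0) in the 2 libraries of PANC-1 (blue points) and of PZT-2 (red points), with the mean and SD of each line in black. The points of PANC-1 and PZT-2 lie apart for 8 genes and overlap for CCNE2 and RB1.

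CCND1 encodes cyclin D1, the D-type cyclin best known from human carcinomas. Its normalized count was 3737 and 4171 in the PANC-1 libraries and 6151 and 6372 in the PZT-2 libraries. Each library of the clone exceeded each library of the parental line, and the gap between the lines was larger than the spread within either. The means were 3954 ± 307 (SD, n = 2) and 6262 ± 156 (SD, n = 2), a 1.58-fold rise with a log2 fold change of 0.66 (SE 0.067, adjusted p = 0.0012). It was the largest change of the 10 genes in summed counts, but 18.4% of all genes tested had a log2 fold change at least as large in size. The 20 tested genes nearest to CCND1 on chromosome 11, 10 on each side, had a median log2 fold change of -0.11, and none of them reached the value of CCND1.

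CCND3 encodes cyclin D3, which shares the partners CDK4 and CDK6 with cyclin D1. Its normalized count was 648 and 698 in PANC-1 and 978 and 920 in PZT-2. The lines did not overlap. The log2 fold change was 0.49 (SE 0.076, adjusted p = 0.0049), a rise of 1.41-fold. Its 20 neighbours on chromosome 6 had a median log2 fold change of -0.09, and 2 of them were at or above the value of CCND3. CCND2, the other D-type cyclin, was near the limit of detection, with normalized counts of 12.4 and 1.81 in PANC-1 and 8.05 and 11.9 in PZT-2, and its libraries overlapped.

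Among the E-type cyclins, which activate CDK2, CCNE1 was called and CCNE2 was not. CCNE1 had normalized counts of 280 and 325 in PANC-1 and 381 and 424 in PZT-2. The lines did not overlap, and the log2 fold change was 0.41 (SE 0.113, adjusted p = 0.039). This call was the least firm of the 5: the adjusted p was 0.114 in DESeq2, and it was 0.0776, 0.0748 and 0.202 in edgeR without PANC-1 replicate 1, PZT-2 replicate 1 and PZT-2 replicate 2. Of the 20 neighbours of CCNE1 on chromosome 19, 5 were at or above its value. CCNE2 had normalized counts of 63.0 and 101 in PANC-1 and 72.5 and 84.1 in PZT-2. Its PZT-2 libraries lay between those of PANC-1. The log2 fold change was -0.08 with a 95% interval from -0.70 to 0.53 (adjusted p = 0.85), so a change of the size seen for CCNE1 in either direction was within the interval. The sign of the CCNE2 value turned under 4 of 14 other ways of processing. Exons of CCNE2 share 1629 bases with INTS8 on the opposite strand in GENCODE 29. The study made its libraries with a stranded kit, but whether strand was used in the quantification is not given in the sources used here. INTS8 itself changed by -0.08 on the log2 scale, with an adjusted p of 0.68.

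The kinases moved in opposite directions. CDK2, the partner of the E-type cyclins, had normalized counts of 1055 and 1046 in PANC-1 and 1412 and 1397 in PZT-2. Libraries of the same line were nearly equal, and the gap between the lines was many times their spread. The log2 fold change was 0.42 (SE 0.059, adjusted p = 0.0036), a rise of 1.34-fold. In its surroundings on chromosome 12, 1 of 20 neighbours was at or above this value.

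CDK4, a partner of the D-type cyclins, had normalized counts of 4101 and 3831 in PANC-1 and 3191 and 3346 in PZT-2. Both PZT-2 libraries were below both PANC-1 libraries, and the log2 fold change was -0.28 (SE 0.061, adjusted p = 0.017). Without PZT-2 replicate 1 or replicate 2 its adjusted p was 0.127 or 0.0779, which ends the call. Of the 20 neighbours of CDK4, which lies on the same chromosome as CDK2, 4 were at or below its value. Exons of CDK4 share 1078 bases with TSPAN31 on the opposite strand, and TSPAN31 had normalized counts of 201 and 155 in PANC-1 and 189 and 184 in PZT-2.

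CDK6, the other kinase of the D-type cyclins, had normalized counts of 700 and 792 in PANC-1 and 629 and 489 in PZT-2. The PZT-2 libraries were lower without overlap but differed among themselves by more than the nearest libraries of the lines did. The log2 fold change was -0.42 with a 95% interval from -0.73 to -0.10, and its adjusted p of 0.056 missed the threshold. It fell under the threshold, to 0.0111 and 0.0259, without PANC-1 replicate 1 or PZT-2 replicate 1, and to 0.0352 when only genes with at least 10 counts in all 4 libraries were tested. With its most abundant transcript alone the value was -0.74 (adjusted p = 0.092), and without PZT-2 replicate 2 it was -0.25 (adjusted p = 0.23). The 20 neighbours of CDK6 on chromosome 7 had a median log2 fold change of -0.21, and 7 of them were at or below the value of CDK6.

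The pocket proteins, which bind E2F factors and keep their target genes silent, were not called. RB1, the retinoblastoma gene, had normalized counts of 370 and 433 in PANC-1 and 345 and 381 in PZT-2. The lines overlapped, and the log2 fold change was -0.15 with a 95% interval from -0.42 to 0.12 (adjusted p = 0.37). RBL1, which encodes p107, had normalized counts of 253 and 278 in PANC-1 and 233 and 213 in PZT-2. RBL2, which encodes p130, the pocket protein that prevails in resting cells, had 460 and 458 in PANC-1 and 420 and 370 in PZT-2. For RBL1 and RBL2 both PZT-2 libraries were lower than both PANC-1 libraries. Their log2 fold changes were -0.26 (95% interval from -0.53 to 0.01, adjusted p = 0.14) and -0.22 (95% interval from -0.45 to 0.01, adjusted p = 0.14). Any rise of RBL1 or RBL2 by more than 0.013 on the log2 scale lay outside these intervals, which are not adjusted for the number of genes. Exons of RBL2 share 610 bases with AKTIP on the opposite strand, which changed by 0.21 on the log2 scale, with an adjusted p of 0.20.

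**Figure D2:**
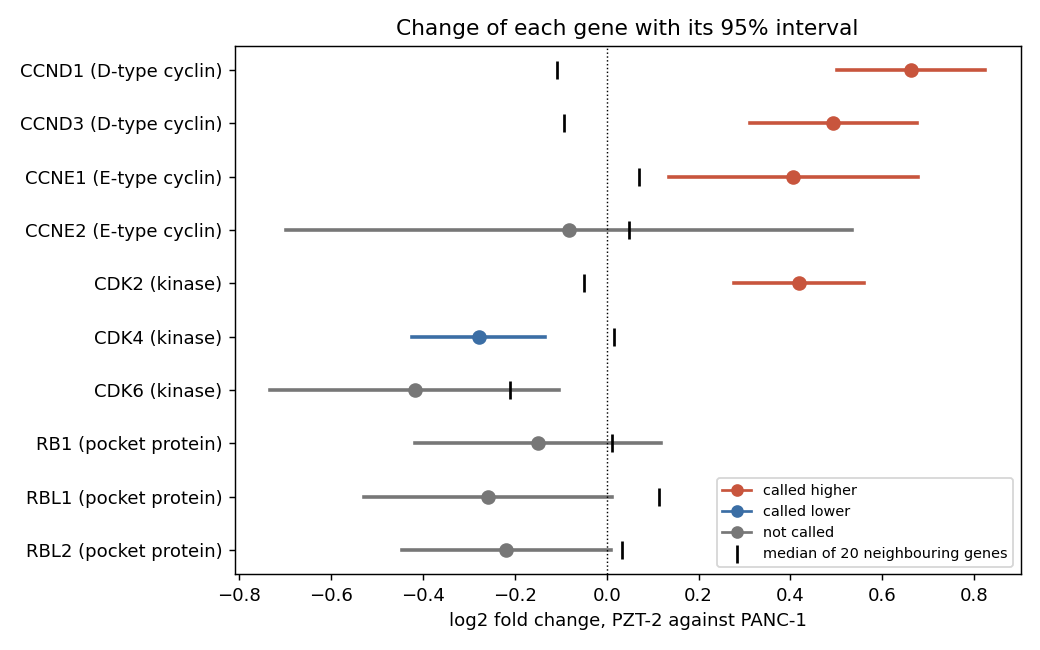
Log2 fold change of each gene in PZT-2 against PANC-1 (points) with its 95% interval (lines, not adjusted for the number of genes), coloured by call, and the median of its 20 nearest tested genes on the chromosome (black ticks). The D-type cyclins, CCNE1 and CDK2 lie above 0, CDK4 lies below 0, and the other 5 genes are grey because they did not pass the adjusted threshold.

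Where the RefSeq table of promoters held a start site, the stretch around it was searched for E2F words. These are some of the letters through which E2F factors are known to bind target genes. The table held promoters for 7 of the 10 genes, some with more than 1 start site, and none was held for CCND1, CCNE2 or CDK2. The words TTTCCCGC, TTTGGCGC, TTTCGCGC and TTTGCCGC were searched on both strands of windows from 250 bases before to 50 bases after each start, and 3.31% of all 35116 windows held at least 1 of them. For RB1 the only start site in the table lay 173 kb from the annotated start of the quantified transcript, so the promoter of that transcript was not searched. Among the windows of the other 6 genes, those of RBL1 alone held a match. Its words were TTTCGCGC and TTTGGCGC on the strand of the gene, starting 26 and 16 bases before the start site. Sites that differ from the words searched, or that lie outside the windows, were not looked for. A window without a match, such as that of CCNE1, therefore does not show that a promoter lacks E2F sites. The windows of CCNE1 and CDK4, the called genes with a single start site in the table, are shown beside that of RBL1. Each line gives the last 120 bases before the start site in GRCh38.p14, on the strand of the gene, with the matched words in capitals. The RBL1 stretch lies at chr20:37095998-37096117 on the minus strand, the CCNE1 stretch at chr19:29811871-29811990 on the plus strand and the CDK4 stretch at chr12:57752311-57752430 on the minus strand.
RBL1: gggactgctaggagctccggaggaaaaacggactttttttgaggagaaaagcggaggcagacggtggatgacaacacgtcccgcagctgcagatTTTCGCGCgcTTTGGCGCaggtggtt
CCNE1: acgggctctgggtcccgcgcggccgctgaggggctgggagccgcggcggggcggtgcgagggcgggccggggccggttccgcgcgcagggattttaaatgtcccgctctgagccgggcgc
CDK4: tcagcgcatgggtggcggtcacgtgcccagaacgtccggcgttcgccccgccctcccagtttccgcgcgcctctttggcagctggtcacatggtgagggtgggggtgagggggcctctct
The stretch of CCNE1 was 78.3% G or C, that of CDK4 was 69.2% and that of RBL1 was 56.7%. The CHR word TTTGAA, found in promoters of genes that the DREAM complex of pocket proteins holds down, was in 15.2% of all windows. It matched in 1 of the 2 windows of RBL2, 24 bases after the start, and in none of the windows of CCND3, CCNE1, CDK4, CDK6 and RBL1.

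In TPM, on which levels can be compared between genes, the order of the 10 genes was the same in both lines. CDK4 was highest, at 270 and 261 TPM in PANC-1 and at 223 and 232 TPM in PZT-2. CCND1 followed at 111 and 127 TPM in PANC-1 and 193 and 199 TPM in PZT-2, so that the gap between CDK4 and CCND1 was much narrower in PZT-2. CDK2, CCND3 and CCNE1 came next, with means of 61.5, 43.5 and 21.0 TPM in PANC-1 and of 85.5, 63.3 and 29.2 TPM in PZT-2. The other 5 genes were at 3.01 to 12.2 TPM in PANC-1 and at 3.65 to 11.6 TPM in PZT-2, in the order RBL2, RB1, CDK6, RBL1 and CCNE2. Neighbours in this order did not overlap, except RBL2 with RB1 and CDK6 with RBL1 in PZT-2.

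**Figure D3:**
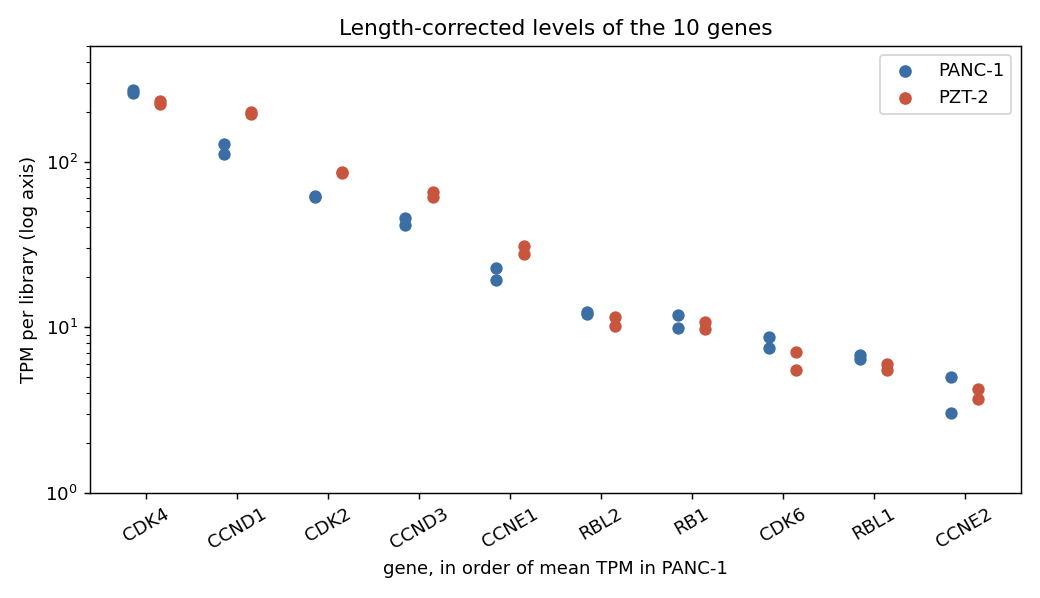
TPM of the 10 genes on a log axis in each library of PANC-1 (blue) and PZT-2 (red), from the highest to the lowest mean in PANC-1. The order is the same in both lines, with CDK4 at 270 and 261 TPM and CCND1 at 111 and 127 TPM in PANC-1.

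The balance between cyclins and kinases differed between the lines. The D-type cyclins together, CCND2 included, came to 152 and 173 TPM in PANC-1 and to 259 and 260 TPM in PZT-2, while CDK4 and CDK6 together came to 278 and 269 TPM and to 230 and 238 TPM. The ratio of D-type cyclins to these kinases was therefore 0.548 and 0.643 in PANC-1 and 1.12 and 1.09 in PZT-2. In PZT-2 the summed TPM of the D-type cyclins was thus slightly above that of their kinases, while in PANC-1 it was below. TPM is an estimate, so which set had more RNA molecules in PZT-2 was not settled by ratios this near 1.

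Against the 3 pocket proteins together, which came to 28.2 and 30.9 TPM in PANC-1 and 27.2 and 26.3 TPM in PZT-2, the D-type cyclins stood at a ratio of 5.40 and 5.61 in PANC-1 and 9.50 and 9.89 in PZT-2. The ratio of CDK2 to CDK4 was 0.225 and 0.239 in PANC-1 and 0.386 and 0.365 in PZT-2. For the E-type cyclins against CDK2 the ratio was 0.365 and 0.448 in PANC-1 and 0.364 and 0.412 in PZT-2. The last ratio overlapped between the lines, and the others did not. Within families the shares moved little: CCND1 made up 72.8% and 73.6% of the D-type cyclins in PANC-1 and 74.6% and 76.4% in PZT-2, and CDK4 made up 96.8% to 97.7% of CDK4 and CDK6 in the 4 libraries. RB1 made up 34.9% to 40.5% of the pocket proteins. These ratios are descriptions of transcript levels and were not tested. After synchronization by serum starvation, the study found far fewer cells of PZT-2 than of PANC-1 in S phase. It reports that most H2A.Z-depleted cells were in the G2/M phase. The part of cell cycle phase in the levels and ratios given here was not tested.

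The 10 genes were represented by 23 RefSeq transcripts, of which 22 were tested. In edgeR 0 of the 22 were called, against 0.149% of all 30301 transcripts, and 6 had an unadjusted p under 0.05. DESeq2 called 6 of the member transcripts, against 14.8% of the 29713 transcripts for which it gave an adjusted p. These were 1 transcript each of CCND1, CCND3, CCNE1, CDK2, CDK4 and CDK6. CCND1, CCNE2, CDK4 and RB1 had 1 transcript each. In the transcript fit, CCND1 had a log2 fold change of 0.66 with an adjusted p of 0.076 in edgeR and 2.5e-15 in DESeq2. CDK4 had -0.29 with 0.12 and 0.00014. The unadjusted p of CCND1 in edgeR was 0.0013 in this fit and 3.7e-05 in the gene fit. The number of features tested was thus not the only difference between the fits. In CCND3, NM_001760, which encodes the full cyclin of 292 residues, held a mean of 86.6% of the counts in PANC-1 and 90.8% in PZT-2. In CDK2, NM_001798, of 298 residues, held 91.2% and 89.4%. RBL1 was split between NM_002895, with 80.4% and 79.9%, and the shorter NM_183404, with 19.6% and 20.1%. In RBL2, NM_005611 held 94.9% and 91.7%.

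CCNE1 was the gene with the largest shift between transcripts. NM_001322259 had normalized counts of 0 and 8.17 in PANC-1 and of 66.3 and 85.8 in PZT-2. It held 1.3% of the CCNE1 counts in PANC-1 and 18.9% in PZT-2, with an adjusted p of 0.32 in edgeR and of 0.017 in DESeq2. The prevailing transcript, NM_001238, had 154 and 266 in PANC-1 and 221 and 313 in PZT-2, so that the lines overlapped. Both are annotated with 12 exons and 410 residues. NM_001322262, with 395 residues, had 119 and 52.7 in PANC-1 and 92.4 and 24.6 in PZT-2 and overlapped as well. With the most abundant transcript of each gene alone, the log2 fold change of CCNE1 was 0.34 with an adjusted p of 0.53. How kallisto divides reads among transcripts that share most of their sequence enters each of these values, but not their sum.

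CDK6 was divided about evenly between transcripts that encode the same 326 residues. NM_001259 had normalized counts of 354 and 500 in PANC-1 and of 282 and 229 in PZT-2. Its PZT-2 libraries were lower than both PANC-1 libraries, at -0.74 on the log2 scale (adjusted p = 0.23 in edgeR and 0.036 in DESeq2). NM_001145306 had 345 and 295 in PANC-1 and 346 and 259 in PZT-2 and overlapped. The difference between these transcripts was not tested.

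**Figure D4:**
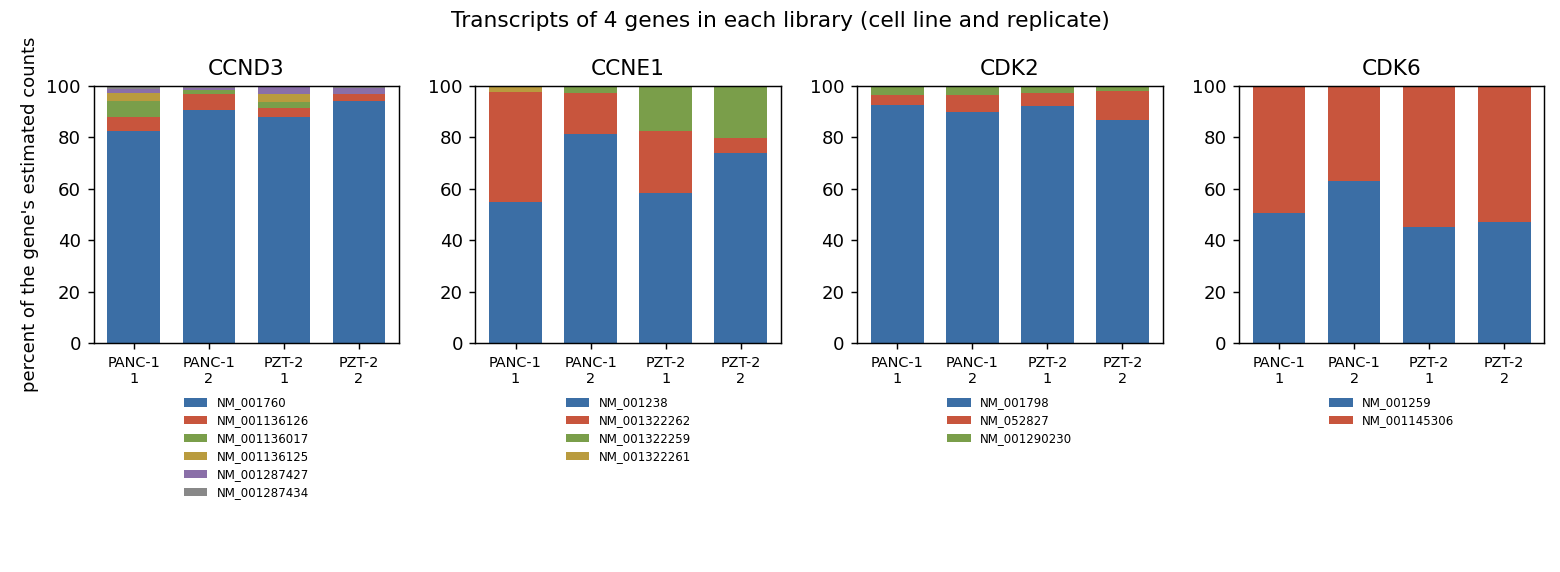
Percent of the estimated counts of CCND3, CCNE1, CDK2 and CDK6 that each RefSeq transcript held (colours) in each of the 4 libraries. In CCNE1, NM_001322259 (green) is at 0% and 2.61% in PANC-1 and at 17.4% and 20.3% in PZT-2.

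Among the inhibitors of these kinases, 5 of 7 had a value. Of these, 2 were called (40%, against 28.4% of all genes), in opposite directions. CDKN1A, which encodes p21, an inhibitor of CDK2 complexes, had normalized counts of 1079 and 790 in PANC-1 and 1408 and 1705 in PZT-2. It rose with a log2 fold change of 0.74 (SE 0.157, adjusted p = 0.015). CDKN2C, which encodes p18, an inhibitor of CDK4 and CDK6, had 1059 and 1132 in PANC-1 and 740 and 805 in PZT-2 and fell, with a log2 fold change of -0.51 (SE 0.076, adjusted p = 0.0046). CDKN1B, CDKN1C and CDKN2D, which encode p27, p57 and p19, had log2 fold changes of 0.33, -0.77 and 0.22 with adjusted p of 0.11, 0.13 and 0.32. CDKN2A and CDKN2B had no value in any library, so whether their RNA was absent or their transcripts were left out cannot be told. The study reports a rise of p16, a product of CDKN2A, in PZT-2 by RT-qPCR and western blot. Its text also lists CDKN2A among the genes that fell. Neither statement could be compared with the values used here.

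Other parts of the G1 network were called at 9.1% to 50% per list, against 28.4% of all genes (14.7% higher and 13.7% lower). No list was tested as a set, so the direction of its few called genes is only a description. Of 11 other cyclins and kinases tested, 1 was called: CDC25A, the phosphatase that removes inhibitory phosphates from CDK2, rose by 0.82 on the log2 scale (adjusted p = 0.0059), from 323 and 428 normalized counts in PANC-1 to 655 and 682 in PZT-2. CCNA1 had no value. Of 15 genes of cyclin turnover, 3 were called and all were lower: CUL4B, a scaffold of ubiquitin ligases, at -0.92 (adjusted p = 0.0005), RBX1, a shared ring subunit, at -0.26, and CKS1B, a cofactor of SKP2, at -0.21. Of 7 genes of the MuvB core, which with pocket proteins forms the DREAM complex, and of its mitotic partners MYBL2 and FOXM1, 1 was called: FOXM1, which binds the core outside DREAM and drives mitotic genes, fell by 0.47 on the log2 scale (adjusted p = 0.0053).

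Of 10 E2F and DP factors, 3 were called, or 30% against 28.4% of all genes, and all 3 were higher. The log2 fold changes of the list ran from -0.38 to 0.55. Of 25 E2F targets of DNA replication, 10 were called (40%), with 5 higher and 5 lower and a median log2 fold change of 0.06. The largest rises were in CDC6, which loads the replicative helicase, at 0.56, in RFC4, a subunit of the clamp loader, at 0.37, and in MCM2, a helicase subunit, at 0.33. The largest falls were in POLA1, the catalytic subunit of DNA polymerase alpha, at -0.68, in DNMT1, the maintenance DNA methyltransferase, at -0.41, and in MCM7, another helicase subunit, at -0.31. Subunits of the same helicase were thus called in both directions. Of 10 transcription factors on the mitogen side, which act upstream of CCND1, 5 were called (50%), 4 higher and 1 lower. The log2 fold changes of this list ran from -0.55 to 1.28. CDC25A, MCM2 and RFC4 all lie on chromosome 3, as do the genes at 0.55 and 1.28 that top the last 2 ranges. GSK3B of the turnover list, also on chromosome 3, was at 0.016 and not called. CUL4B and POLA1 both lie on chromosome X. Neighbouring genes were compared only for the 10 genes, and the part of chromosome regions in these lists was not tested.

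**Figure D5:**
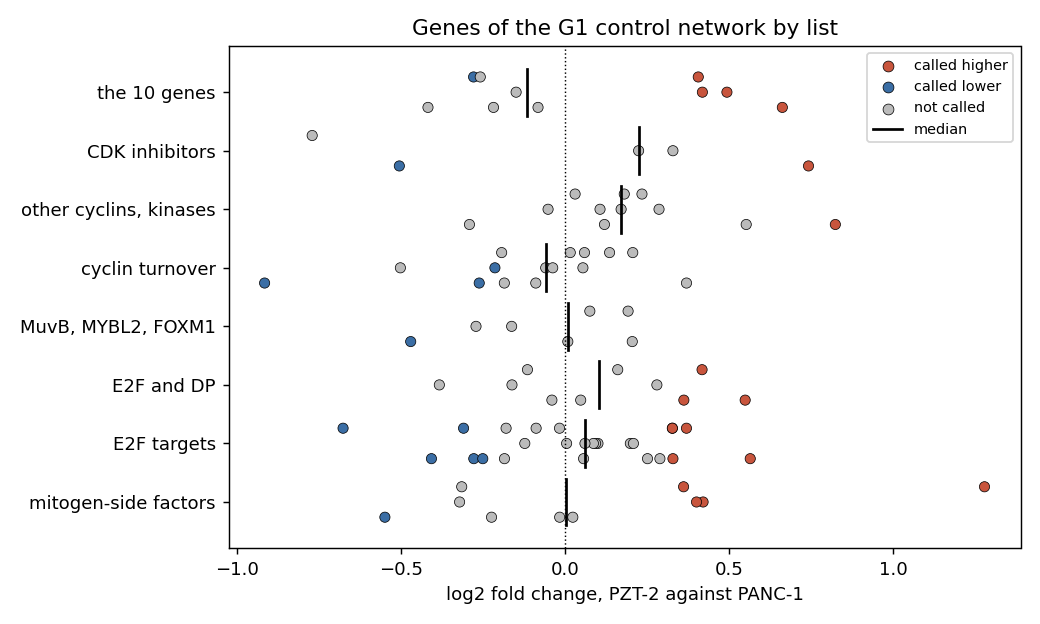
Log2 fold change in PZT-2 against PANC-1 of each tested gene (points) of the 10 genes and of 7 lists of the G1 network, coloured by call, with the median of each list as a black line. Called genes lie on both sides of 0 for the 10 genes, for the CDK inhibitors, for the E2F targets and for the mitogen-side factors.

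The genes whose pattern over the 4 libraries was nearest to that of CCND1, by the root mean square difference of centred log2 CPM among 10052 genes whose normalized count averaged 100 or more, were STK32B at 0.0138, MAP3K13 at 0.0169 and HSPA1B at 0.0180. Their log2 fold changes were 0.64, 0.64 and 0.67. With 4 libraries in 2 groups, this likeness says little beyond a shared difference between the lines.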

How the data were processed

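The data were 4 libraries, 2 of PANC-1 and 2 of PZT-2, grouped by their labels. The authors used Trim Galore 0.4.1 to trim the paired reads and kallisto 0.43.0 to quantify transcripts of RefSeq. They used sleuth 0.29.0 for their test. The deposited estimated counts per transcript carry 1 factor per library (1.16, 0.935, 1.03 and 1.01), which was found from the values and undone. That it came from an export through sleuth was inferred. Values between 0.5 and 30 of genes with 1 transcript were then whole to within 0.01 for 49.0% to 50.2%, against 0.63% to 2.71% as deposited. The deposited TPM values are rescaled per library, so TPM was recomputed from the estimated counts and the deposited effective lengths. Columns with the results of the authors' own test were not used.

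Of 31077 transcripts, 27049 had a symbol in the deposited tables, 3925 were named through their accession in RefSeq and 103, with 0.0466% of the counts, were left out. Rounded counts were summed per gene. Genes for which 2 or more libraries had 5 or more counts were tested with edgeR 4.0.16 (TMM, quasi-likelihood, threshold 0.05 after Benjamini-Hochberg adjustment) in R 4.3.3, and the script was tested on simulated data. Normalized counts are scaled to the mean effective library. Errors are SD over 2 libraries. The smallest p of an exact permutation test of 2 against 2 is 0.333, so none was made. Precision is limited by the number of libraries: PANC-1 replicates differed by 6.24 times the counting error and PZT-2 replicates by 3.52 times, in variance.

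Alternatives were RLE factors, DESeq2 1.42.0, no filter and a stricter filter, counts as deposited, limma 3.58.1 on log2(TPM + 1) and log2(TPM + 0.1), length-scaled counts, the most abundant transcript alone, the replicate number as a block, and each library left out. The members and all lists were chosen with earlier results of these data known. All members, transcripts with at least 10% of their gene's counts, and up to 3 called genes per direction of each pathway list were named, with all CDK inhibitors; E2F and DP factors and mitogen-side factors are given only in counts and ranges. INTS8, TSPAN31 and AKTIP were named for their position. Promoters are from RefSeq (GRCh38.p14), exons and residues from GENCODE 29, which is not the authors' index. The labels name hg19, with a role not given in the sources used here.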

Additional observations from a re-analysis of the deposited data

How the results depend on the processing

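CCND1, CCND3 and CDK2 kept their direction and their call under all 14 alternatives, with log2 fold changes from 0.58 to 0.74, from 0.44 to 0.56 and from 0.39 to 0.47. RB1, RBL1 and RBL2 stayed below 0 and uncalled under all 14, from -0.26 to -0.04, from -0.33 to -0.17 and from -0.31 to -0.13, with RB1 at -0.04 without PANC-1 replicate 2 and RBL2 at -0.13 without PZT-2 replicate 2. CCNE1 lost its call in 5, with its adjusted p reaching 0.53: in DESeq2 (0.40), with the most abundant transcript alone (0.34) and in 3 of the 4 fits that left out 1 library, with 0.30 to 0.51 over all 4 and the call kept at 0.51. CDK4 lost its call in 2, and leaving out 1 library gave -0.34 to -0.23. CDK6 gained a call in 3, with -0.42 under the filter of at least 10 counts in all 4 libraries and -0.61 to -0.25 on leaving out 1 library, the last without PZT-2 replicate 2; with the most abundant transcript alone it was -0.74, uncalled and larger in size than CCND1 (0.66). CCNE2 turned to 0.0077 and 0.017 in limma on log2(TPM + 1) and log2(TPM + 0.1), and leaving out 1 library gave -0.38 to 0.30, above 0 without PANC-1 replicate 2 or PZT-2 replicate 1 (0.021). Leaving out 1 library gave 3 to 5 called members, the lowest without PZT-2 replicate 2, and 1951 to 4721 called genes against 4291, with 2367 and 1951 when replicate 1 or replicate 2 of PZT-2 was dropped; a lone library was then assumed to vary like the other line. With the most abundant transcript alone 2128 genes were called. For member transcripts, DESeq2 called 6 and the filter of at least 10 counts in all 4 libraries 1, against 0. In limma on log2(TPM + 1) 2370 genes were called higher and 1446 lower, against 2223 and 2068. The cause of these differences was not tested. Replicate numbers did not pair the libraries (r = -0.0318 over 11207 genes), and with the replicate block 3684 genes, 5 members and 0 member transcripts were called. For CCNE2, whose PANC-1 libraries stood at 63.0 and 101 normalized counts, the 95% interval ran from -0.70 to 0.53. It held changes of the sizes seen for CCND3, CCNE1 and CDK2 in either direction, while a rise of the size of CCND1 (0.66) lay above it.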
